A study of Homo sapiens with 14 samples.

Results

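Expression was described for 9 transcripts that are known targets of adenosine-to-inosine RNA editing: AZIN1, BLCAP, COPA, CDK13, NEIL1, FLNA, CYFIP2, COG3 and NUP43. They were chosen by name from general knowledge of editing, with earlier results of these data known, and matched by Ensembl identifier, and all 9 were found among the 62757 genes in each count file. Gene counts hold no sequence, so the editing level of these transcripts could not be read and only their abundance is reported. The study compared human ovarian cancer cell lines with cisplatin-resistant derivatives and asked what RNA editing, and ADAR1 in particular, contributes to resistance. The 14 RNA-seq libraries fell into 7 groups of 2. OVCAR3-DDP (cisplatin-resistant, genotype tag DDP) was set against OVCAR3-WT (its parental line), and A2780-DDP against A2780-WT in the same way. The other 3 groups were OVCAR3-DDP cells that carried a short hairpin RNA: sh1 and sh2, both tagged shADAR1, against shNC, the control hairpin. The cisplatin schedule, whether a derivative was a clone or a pool, and how the hairpins were delivered were not stated. The labels do not say whether a group's 2 libraries came from separate cultures, so the p-values reflect the spread between these samples alone, and that spread may be technical.

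ADAR enzymes bind double-stranded RNA and deaminate adenosine to inosine, which the ribosome and reverse transcriptase read as guanosine. In most edited human transcripts the sites lie in noncoding Alu repeats, but a small set of messages is edited inside a codon so that the protein changes. ADAR1, encoded by ADAR, is known as the main editor of AZIN1 and NEIL1, and ADAR2, encoded by ADARB1, as the main editor of FLNA and CYFIP2.

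The spliced coding sequence around the known recoding sites is given here 5′ to 3′ on the coding strand from GENCODE 29 transcripts on GRCh38. The COPA, FLNA and NEIL1 stretches are joined across an intron, so their bases are not contiguous in the genome. The double-stranded RNA that the enzymes bind is not shown. Capitals mark the codon that holds the edited adenosine. BLCAP is shown from its start codon, because 3 of its first 18 codons are known to be edited (codons 2, 5 and 15, giving Y-to-C, Q-to-R and K-to-R). The changes in the others are I-to-V in COPA and COG3, Q-to-R in CDK13 and FLNA, K-to-R in NEIL1 and K-to-E in CYFIP2.
BLCAP: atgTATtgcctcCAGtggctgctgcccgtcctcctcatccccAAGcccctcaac
COPA: cgcgtttgggatATTtctggtctgagg
COG3: accattaaggaaATTtccctggacctc
CDK13: gcaggagggcggCAGaagcggcgtcgc
FLNA: gtttctagccttCAGgagtcagggcta
NEIL1: cagttggggggcAAAggctacgggtca
CYFIP2: gccagatacattAAGaccagtgctcac
The BLCAP stretch lies at chr20:37519121-37519174 on the minus strand. The edited base of COPA is position 160332454 of chromosome 1, on the minus strand in exon 6 of 33, and that of FLNA is position 154351582 of chromosome X, on the minus strand in exon 43 of 48. On the plus strand, the COG3 stretch lies at chr13:45516224-45516250 in exon 17 of 23 and the CDK13 stretch at chr7:39950936-39950962 in exon 1 of 14. The CYFIP2 stretch lies at chr5:157309788-157309814 in exon 10 of 31, and the edited base of NEIL1 is position 75353745 of chromosome 15 in exon 6 of 10. Over the 9 sites in these 7 genes, the base before the edited adenosine was T in 3, A in 3, C in 3 and G in 0, and the base after it was G in 4, T in 3, A in 2 and C in 0. No sequence is shown for AZIN1 or NUP43.

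The libraries held 20428538 to 49115255 counts assigned to genes, and the lowest count of any of the 9 genes in any library was 252, for CYFIP2. Levels are CPM (a gene's count divided by the counts assigned in its library, scaled alike for every library), n = 2 per group. Fold changes are log2 values from edgeR's quasi-likelihood test with TMM normalization, a standard error (SE) and Benjamini-Hochberg adjustment over all genes tested. A gene is said to rise or fall where the adjusted p was under 0.05. The libraries labelled OVCAR3-DDP stood apart from their label, and whether they hold the cells it names was not tested. The summed level of 11 ovarian carcinoma and epithelial markers was 539 to 575 CPM in them, with 4 of 11 at 1 CPM or more and CD44 at 0, against 4400 to 4791 CPM and 9 of 11 in OVCAR3-WT. In shNC, which the labels place in the OVCAR3-DDP background, that sum was 5507 to 5833 CPM, with 9 of 11 at 1 CPM or more. The summed level of 5 neural markers was 423 to 431 CPM in the OVCAR3-DDP-labelled libraries, against 2.68 to 2.93 CPM in OVCAR3-WT, and 9.12 to 9.96 CPM in shNC. In A2780 the 11 epithelial markers summed to 278 to 306 CPM in A2780-DDP and 198 to 205 CPM in A2780-WT, with 4 of 11 at 1 CPM or more in both. There the 5 neural markers summed to 155 to 201 CPM in A2780-DDP and 21.3 to 21.8 CPM in A2780-WT. The part of these markers in the differences below was not tested, and in bulk RNA fewer cells of a type and less RNA per cell cannot be told apart. Of the other cell types, 5 fibroblast markers summed to 102.97 to 109.9 CPM in the OVCAR3-DDP-labelled libraries, against 66.5 to 70.5 CPM in OVCAR3-WT, and to 33.6 to 34.8 CPM in A2780-DDP, against 87.1 to 92.0 CPM in A2780-WT. The 3 endothelial markers summed to 0.232 to 0.609 CPM in the OVCAR3-DDP-labelled libraries, against 2.76 to 2.87 CPM in OVCAR3-WT, and to at most 0.335 CPM in A2780. Markers of immune cells summed to at most 1.68 CPM in every group.

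The editing enzymes set the background for their targets. ADAR stood at 289 and 254 CPM with sh1 and 116 and 114 CPM with sh2, against 447 and 399 CPM with shNC. ADAR thus fell under both hairpins, by log2 −0.71 (SE 0.11; edgeR adjusted p = 0.00123) with sh1 and −1.99 (SE 0.11; edgeR adjusted p = 2.07e-09) with sh2. It was lower in the libraries labelled OVCAR3-DDP than in OVCAR3-WT (log2 −0.73), and differed by log2 0.02 between A2780-DDP and A2780-WT (edgeR adjusted p = 0.924). ADARB1 was 27.7 and 26.6 CPM in the OVCAR3-DDP-labelled libraries, against 108 and 135 CPM in OVCAR3-WT. It was 16.6 to 23.2 CPM in the 4 A2780 libraries. The shNC group, also labelled OVCAR3-DDP, did not show these lower levels. It differed from OVCAR3-WT by log2 0.03 for ADARB1 (SE 0.12; edgeR adjusted p = 0.892). For ADAR that difference was log2 −0.06 (SE 0.12; edgeR adjusted p = 0.718). Set against the libraries labelled OVCAR3-DDP, shNC was higher by log2 2.29 for ADARB1 and 0.60 for ADAR. ADARB2, the third member of the family, was at 0 to 0.211 CPM in all 14 libraries.

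All 9 transcripts were expressed in all 14 libraries, and they differed more in level than most of them differed between groups. Per kilobase of merged exon, the mean level over the 7 groups was 270.5 CPM for FLNA, which crosslinks actin filaments, and 40.2 CPM for COPA, a subunit of the COPI vesicle coat. AZIN1, which keeps ornithine decarboxylase from being degraded, followed at 18.2 CPM per kilobase, and NUP43, a nuclear pore subunit, at 16.9. BLCAP, a small membrane protein known from bladder cancer, was at 6.22 CPM per kilobase, and the DNA repair glycosylase NEIL1 at 5.04. The lowest 3 were COG3, a Golgi tethering subunit, at 4.30, CYFIP2, an actin regulator, at 2.66, and CDK13, a kinase that acts on RNA polymerase II, at 2.40 CPM per kilobase. The order of these last 3 changed when the longest annotated transcript replaced the merged exons, with CDK13 then above COG3 and CYFIP2.

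Over the 7 groups, the highest group mean was 5.60 times the lowest for CYFIP2, 4.29 times for FLNA, 3.11 times for CDK13, 3.07 times for NEIL1 and 3.06 times for NUP43. AZIN1 spanned 2.71 times and COG3 2.39 times. BLCAP spanned 1.33 times and COPA 1.23 times, and these were the steadiest of the 9. In the order of its group means, COPA had 1 pair of neighbours whose libraries did not overlap, the libraries labelled OVCAR3-DDP at 293 ± 11.2 CPM and shNC at 269 ± 19.9 CPM (SD). Scaled by TMM over all 14 libraries, these groups changed order, at 259 ± 8.62 and 307 ± 21.5 CPM (SD). In the fit shNC was the higher, by log2 0.17 (SE 0.11; edgeR adjusted p = 0.188). For BLCAP, 4 of 6 neighbouring pairs overlapped. On CPM scaled by TMM over all 14 libraries, 3 of the 9 transcripts kept both their highest and their lowest group, so the exact order of near groups depends on the scaling.

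**Figure D1:**
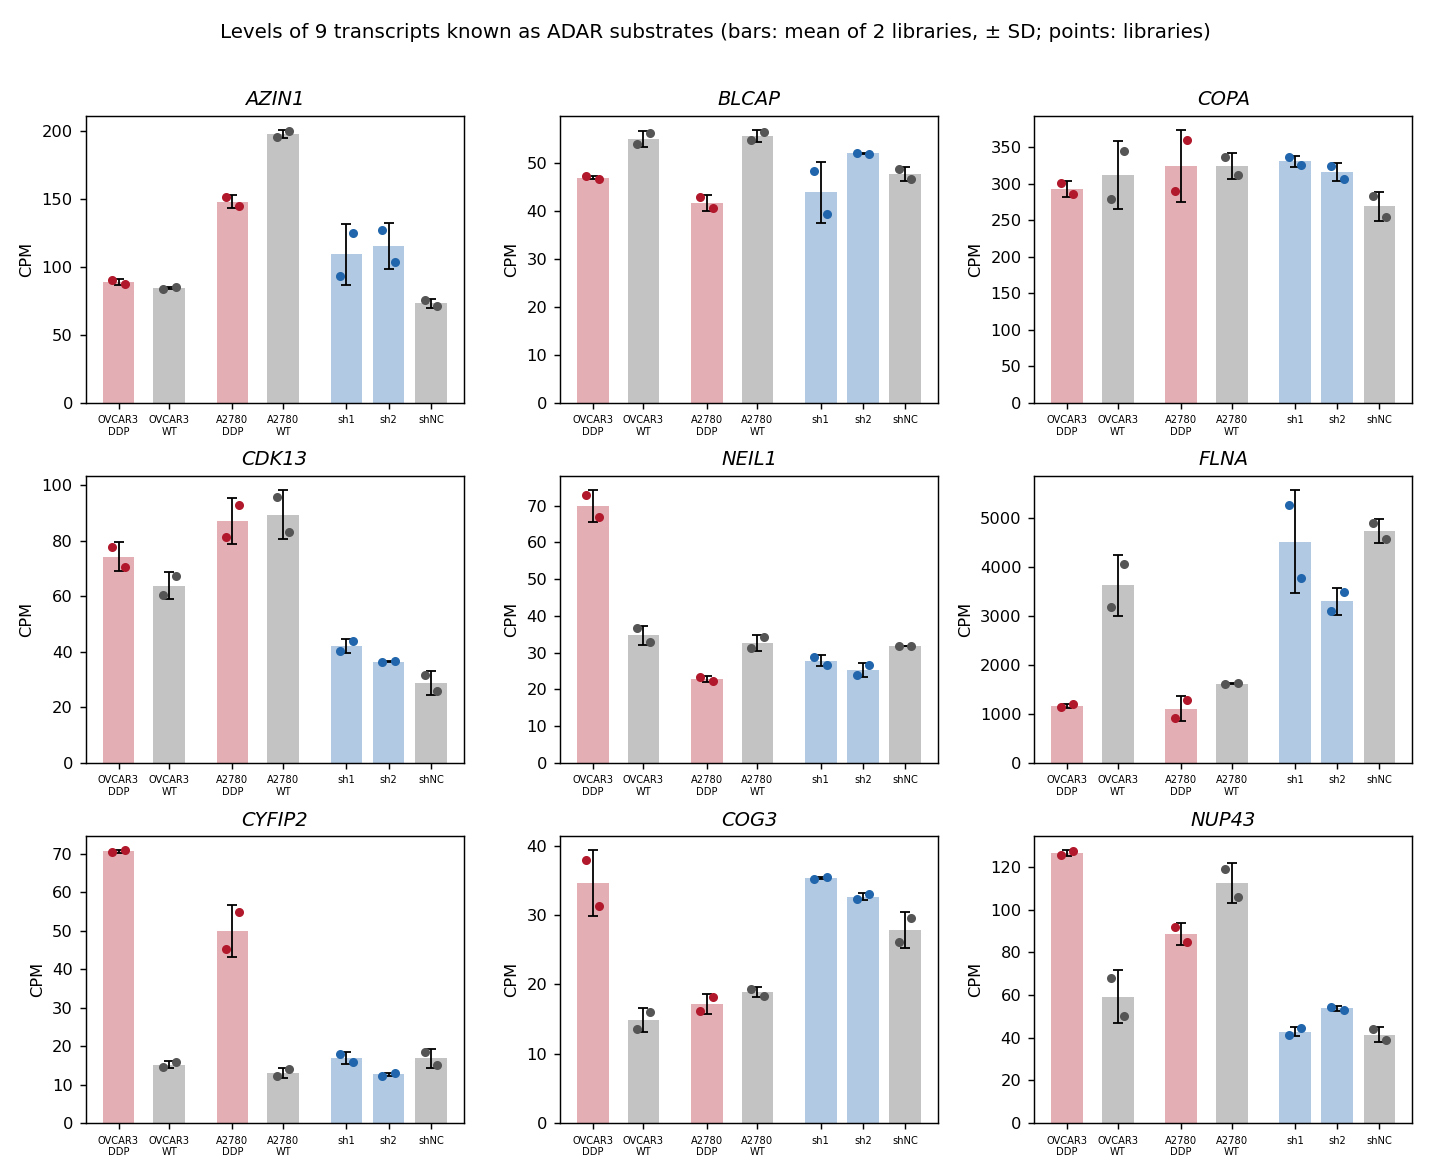
Level of each transcript in CPM (vertical axis, linear from 0) in the 7 groups; bars are means of 2 libraries, error bars are SD and points are libraries. CYFIP2 stands at 45.2 to 71.0 CPM in both DDP groups without a hairpin and at 12.2 to 18.6 CPM in the 10 other libraries. These include all hairpin libraries, which are also labelled OVCAR3-DDP. COPA and BLCAP vary little.

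Cisplatin-resistant cells were compared with parental cells in each line. For OVCAR3 every direction here comes from the libraries so labelled. CYFIP2 was about 4-fold higher in A2780-DDP and in the libraries labelled OVCAR3-DDP than in the parental cells, the 1 transcript of the 9 that rose in both. In shNC, the other group labelled as OVCAR3-DDP, CYFIP2 differed from OVCAR3-WT by log2 0.34. FLNA and BLCAP fell in both, FLNA far more in OVCAR3. NEIL1 moved in opposite directions in the 2 lines, COG3 and NUP43 rose in OVCAR3 and differed between the lines, and AZIN1 fell in A2780. COPA and CDK13 passed in neither line. In OVCAR3, 4 of the 9 rose and 2 fell, where 68.5% of the 23031 genes tested were called (33.4% higher and 35.2% lower). In A2780, 1 of 9 rose and 4 fell, where 35.3% were called (18.0% higher and 17.3% lower). The count of called transcripts in OVCAR3 is therefore near the share of all genes. The median log2 fold change of the 9 was 0.04 in OVCAR3 and −0.34 in A2780, against −0.03 and 0.00 over all genes tested.

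**Figure D2:**
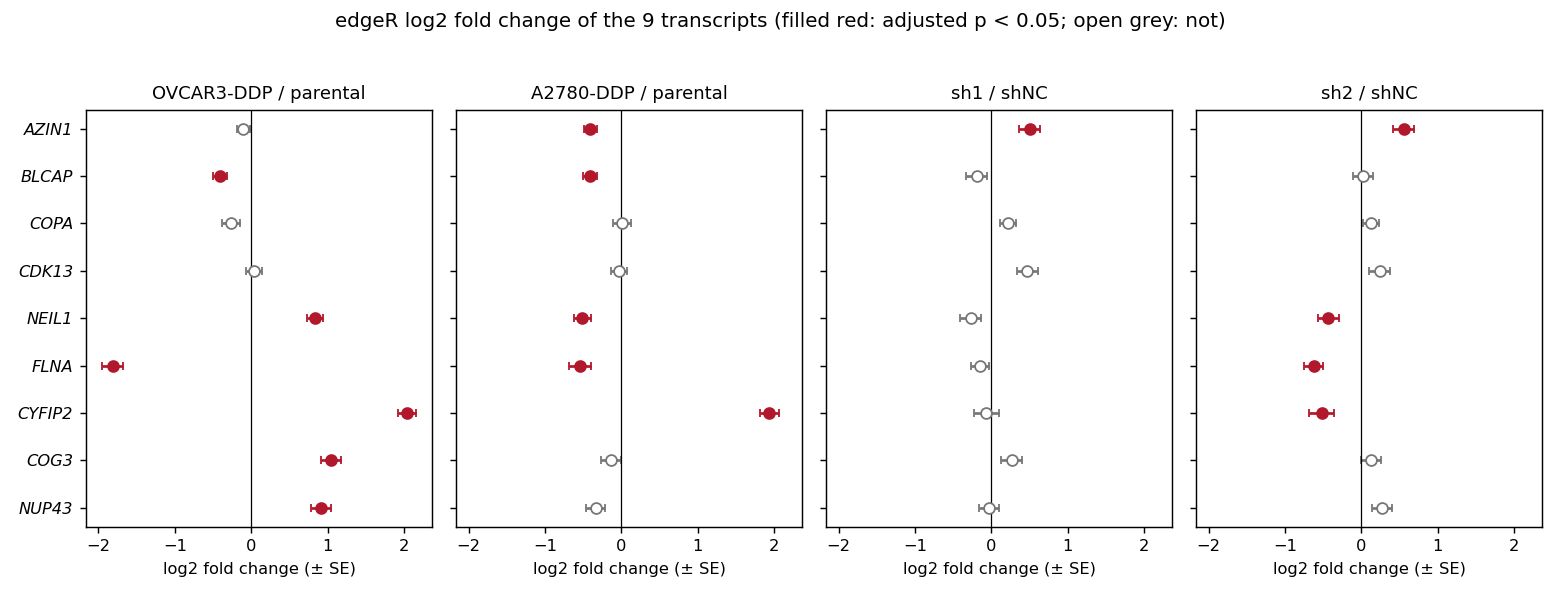
Log2 fold change (horizontal axis, points with SE bars) of the 9 transcripts from edgeR in 4 comparisons: OVCAR3-DDP over parental, A2780-DDP over parental, sh1 over shNC and sh2 over shNC; filled points passed an adjusted p of 0.05. CYFIP2 lies near 2 for both DDP groups without a hairpin, at 2.04 and 1.94. AZIN1 is filled under both hairpins, at 0.50 and 0.55.

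The actin regulators moved most. CYFIP2, a subunit of the WAVE complex that drives branched actin assembly, stood at 70.4 and 71.0 CPM in the OVCAR3-DDP-labelled libraries, against 14.5 and 15.8 CPM in OVCAR3-WT. In A2780 it was 45.2 and 54.8 CPM in A2780-DDP, against 12.2 and 14.03 CPM in A2780-WT. In both lines each of these DDP libraries stood well above both parental ones. The increase was log2 2.04 (SE 0.12; edgeR adjusted p = 6.09e-09) in OVCAR3 and 1.94 (SE 0.12; edgeR adjusted p = 6.50e-08) in A2780, and both held in every alternative run. The difference between these effects was log2 0.10, with a 95% interval of −0.26 to 0.47 (edgeR adjusted p = 0.659). ADAM19, which overlaps CYFIP2 on the opposite strand over 0.591% of its exon bases, rose with it (log2 1.80 in OVCAR3 and 1.58 in A2780). The level of ADAM19 was 16.6 to 26.4 CPM in the 4 DDP libraries without a hairpin and 5.90 to 8.24 CPM in the 4 parental ones. In shNC, also labelled OVCAR3-DDP, ADAM19 was at 0.802 and 1.74 CPM. That was lower than in OVCAR3-WT by log2 −2.08 (SE 0.31; edgeR adjusted p = 4.12e-06). The strand setting of the counting is not given in the sources used here, so how reads were counted where such a pair overlaps is not known.

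FLNA, the actin crosslinker filamin A, stood at 1138 and 1191 CPM in the OVCAR3-DDP-labelled libraries, against 3185 and 4064 CPM in OVCAR3-WT. It was 919 and 1285 CPM in A2780-DDP, against 1605 and 1623 CPM in A2780-WT. The groups did not overlap in either line. The fall was log2 −1.81 (SE 0.14; edgeR adjusted p = 1.00e-07) in OVCAR3 and −0.54 (SE 0.14; edgeR adjusted p = 0.00808) in A2780. The effect in OVCAR3 was the stronger one, by log2 −1.27 (SE 0.20; edgeR adjusted p = 0.000104). In A2780 the fall did not pass without A2780-DDP replicate 1 (log2 −0.30, edgeR adjusted p = 0.0975) or without A2780-WT replicate 2 (edgeR adjusted p = 0.0614), the range over its alternatives being 9.09e-09 to 0.0975.

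NEIL1, a glycosylase that removes oxidised bases from DNA, stood at 73.0 and 66.8 CPM in the OVCAR3-DDP-labelled libraries, against 36.6 and 32.7 CPM in OVCAR3-WT. In A2780 the order was the opposite, with 23.3 and 22.2 CPM in A2780-DDP and 31.2 and 34.2 CPM in A2780-WT. Neither pair of groups overlapped. The rise of NEIL1 in OVCAR3 was log2 0.83 (SE 0.11; edgeR adjusted p = 1.18e-05), and its fall in A2780 log2 −0.51 (SE 0.11; edgeR adjusted p = 0.00264). The difference between the lines was log2 1.35 (SE 0.15; edgeR adjusted p = 6.76e-06). The call in A2780 did not pass without A2780-WT replicate 2 (edgeR adjusted p = 0.0775; range over alternatives 0.000947 to 0.0775). NEIL1 shares 1831 exon bases, 26.4% of its own, with MAN2C1, an alpha-mannosidase gene on the opposite strand. MAN2C1 was 35.9 to 36.5 CPM in A2780-DDP, against 63.5 to 67.6 CPM in A2780-WT, a fall of log2 −0.85 (edgeR adjusted p = 4.47e-05). In OVCAR3 its change was log2 0.17 (edgeR adjusted p = 0.173). The level of NEIL1 is therefore uncertain where the genes overlap, and its fall in A2780 came with a fall in MAN2C1.

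COG3, part of the COG complex that tethers vesicles at the Golgi, stood at 38.0 and 31.3 CPM in the OVCAR3-DDP-labelled libraries, against 13.6 and 16.0 CPM in OVCAR3-WT. It was 16.1 and 18.1 CPM in A2780-DDP, against 19.4 and 18.4 CPM in A2780-WT. The OVCAR3 groups lay far apart and the A2780 groups close together. COG3 rose by log2 1.04 (SE 0.13; edgeR adjusted p = 9.03e-06) in OVCAR3, and its change in A2780 was −0.13 (SE 0.13; edgeR adjusted p = 0.487). The difference between the lines was log2 1.17 (SE 0.18; edgeR adjusted p = 0.000123).

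NUP43, a subunit of the Y complex that scaffolds the nuclear pore, stood at 126 and 128 CPM in the OVCAR3-DDP-labelled libraries, against 68.0 and 50.4 CPM in OVCAR3-WT. In A2780 it was 92.2 and 84.8 CPM in A2780-DDP, against 119 and 106 CPM in A2780-WT. The resistant libraries lay above the parental ones in OVCAR3 and below them in A2780. The rise in OVCAR3 was log2 0.92 (SE 0.13; edgeR adjusted p = 3.00e-05). The change in A2780, log2 −0.34 (SE 0.13; edgeR adjusted p = 0.0589), did not pass, but passed with no low-count filter (0.0257) and with a replicate block (0.0292; range over alternatives 0.0257 to 0.392), and the lines differed by log2 1.26 (SE 0.18; edgeR adjusted p = 6.32e-05).

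AZIN1, the antizyme inhibitor of the polyamine pathway, stood at 90.7 and 87.1 CPM in the OVCAR3-DDP-labelled libraries, against 84.1 and 85.0 CPM in OVCAR3-WT. It was 152 and 145 CPM in A2780-DDP, against 196 and 200.1 CPM in A2780-WT. AZIN1 fell in A2780 by log2 −0.41 (SE 0.09; edgeR adjusted p = 0.00221), a call that did not pass without A2780-WT replicate 2 (edgeR adjusted p = 0.0726; range over alternatives 0.000336 to 0.0726). In OVCAR3 the fitted change was log2 −0.11 (SE 0.09; edgeR adjusted p = 0.294), while the CPM means ran the other way, and its sign turned with upper-quartile scaling (log2 0.02). The line difference for AZIN1, log2 0.30 (SE 0.12; edgeR adjusted p = 0.0499), was at the threshold and ran from 0.00756 to 0.169 over the alternatives.

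BLCAP stood at 47.2 and 46.6 CPM in the OVCAR3-DDP-labelled libraries, against 53.8 and 56.1 CPM in OVCAR3-WT. In A2780 it was 42.9 and 40.5 CPM in A2780-DDP, against 54.7 and 56.5 CPM in A2780-WT. The groups did not overlap in either line, and both differences were small. BLCAP fell by log2 −0.41 in each (SE 0.09; edgeR adjusted p = 0.00139 in OVCAR3 and 0.00382 in A2780). The difference between the effects was close to 0 on the log2 scale, with a 95% interval of −0.28 to 0.28. The A2780 call did not pass without A2780-DDP replicate 2 (edgeR adjusted p = 0.0597) or A2780-WT replicate 2 (edgeR adjusted p = 0.0993), the range over alternatives being 0.00346 to 0.0993.

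COPA and CDK13 gave no call in either line. COPA stood at 301 and 286 CPM in the OVCAR3-DDP-labelled libraries, against 279 and 345 CPM in OVCAR3-WT, and at 290.1 and 359.8 CPM in A2780-DDP, against 337 and 312 CPM in A2780-WT. Its groups overlapped in both lines. The change of COPA was log2 −0.27 (95% interval −0.52 to −0.02; edgeR adjusted p = 0.0557) in OVCAR3 and 0.01 (95% interval −0.24 to 0.26; edgeR adjusted p = 0.976) in A2780. Without OVCAR3-WT replicate 1 it passed in OVCAR3 (log2 −0.39, edgeR adjusted p = 0.00467; range over alternatives 0.00467 to 0.347). CDK13, which phosphorylates RNA polymerase II together with cyclin K, stood at 77.8 and 70.4 CPM in the OVCAR3-DDP-labelled libraries, against 60.4 and 67.1 CPM in OVCAR3-WT. It was 81.1 and 92.8 CPM in A2780-DDP, against 95.6 and 83.1 CPM in A2780-WT. Its log2 change was 0.04 (95% interval −0.19 to 0.26) in OVCAR3 and −0.03 (95% interval −0.25 to 0.20) in A2780.

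By the interaction of line and resistance, 5 of the 9 transcripts differed between the lines (NEIL1, COG3, NUP43 and AZIN1 higher and FLNA lower in OVCAR3), where 53.8% of all genes tested did (26.9% higher and 26.9% lower). Calls in the A2780 comparison rest in part on 1 library. Without A2780-WT replicate 2, 1 of the 9 transcripts passed in place of 5, and CYFIP2 was the one. No direction of a called transcript turned with any scaling tried. Upper-quartile scaling moved the median of all genes by log2 0.13 in OVCAR3 and 0.11 in the line difference. Because the libraries labelled OVCAR3-DDP carry fewer of the epithelial markers of their label, and at a lower summed level, their contrasts with OVCAR3-WT, the line difference included, mix resistance with that difference, and the 2 cannot be told apart. The A2780 comparison refitted without them again called 5 of 9.

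Parental lines were compared to show how far the transcripts differ before resistance. AZIN1, CDK13 and NUP43 were lower and FLNA was higher in OVCAR3-WT than in A2780-WT, 3 of 9 lower and 1 higher, where 66.0% of all genes tested were called (32.3% higher and 33.7% lower). AZIN1 had the clearest gap, 84.1 and 85.0 CPM in OVCAR3-WT against 196 and 200.1 CPM in A2780-WT (log2 −1.18, SE 0.09; edgeR adjusted p = 5.59e-08). NUP43 was lower by log2 −0.88 (SE 0.13; edgeR adjusted p = 4.99e-05) and CDK13 by −0.44 (SE 0.10; edgeR adjusted p = 0.00241). FLNA was higher by log2 1.22 (SE 0.14; edgeR adjusted p = 4.81e-06).

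The hairpins tested whether abundance of the edited transcripts moved when ADAR was lowered. AZIN1 rose with both hairpins and FLNA fell with sh2. No other transcript passed with both hairpins. With sh1, 1 of 9 was called (AZIN1), where 3.81% of the 19044 genes tested were called (1.96% higher and 1.85% lower). With sh2, 4 of 9 were called (AZIN1 higher; FLNA, NEIL1 and CYFIP2 lower), where 14.3% were (7.23% higher and 7.04% lower). For the mean of both hairpins, 2 of 9 were called (AZIN1 higher and FLNA lower), where 11.9% were (5.94% higher and 5.98% lower). The median log2 change of the 9 was −0.03 with sh1 and 0.12 with sh2, against 0.02 and 0.00 over all genes tested. Both comparisons share the shNC libraries, so their values are not independent of each other. The ovarian carcinoma and epithelial markers moved too, summing to 4554 to 4772 CPM with sh1 and 4814 to 4828 CPM with sh2, against 5507 to 5833 CPM with shNC. Of 9 tested, 4 fell with sh1, 3 with sh2 and 6 for the mean of both, where the median was log2 −0.30, and 0 rose. The part of this shift in the values that follow was not tested.

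AZIN1 stood at 93.5 and 125 CPM with sh1 and 127 and 103.5 CPM with sh2, against 75.4 and 70.9 CPM with shNC. All 4 libraries with an ADAR hairpin lay above both controls. The rise was log2 0.50 (SE 0.14; edgeR adjusted p = 0.0482) with sh1, 0.55 (SE 0.14; edgeR adjusted p = 0.0130) with sh2 and 0.53 (SE 0.12; edgeR adjusted p = 0.0106) for the mean. Between the hairpins AZIN1 differed by log2 0.05 (95% interval −0.24 to 0.34), although ADAR itself was lower with sh2 than with sh1 by log2 −1.27 (SE 0.11). The sh1 call was near the threshold. It did not pass without sh1 replicate 2 (log2 0.28, edgeR adjusted p = 0.0945), without shNC replicate 1 (0.207) or without shNC replicate 2 (0.346; range over alternatives 7.71e-06 to 0.346). It also missed the threshold with DESeq2 size factors (0.0513), upper-quartile scaling (0.0541) and limma-voom (0.0536). The sh2 call did not pass without sh2 replicate 1 (log2 0.39, edgeR adjusted p = 0.290), shNC replicate 1 (0.0730) or shNC replicate 2 (0.116; range 0.000601 to 0.290). The call for the mean did not pass without sh2 replicate 1 (edgeR adjusted p = 0.0661), shNC replicate 1 (0.0891) or shNC replicate 2 (0.155; range 3.01e-07 to 0.155). The size for the mean stayed between log2 0.42 and 0.61 over all alternatives.

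FLNA stood at 5259.7 and 3766 CPM with sh1 and 3099.7 and 3489.8 CPM with sh2, against 4898 and 4564 CPM with shNC. The sh2 libraries lay below both controls, and the sh1 libraries lay on either side of them. The change was log2 −0.14 (SE 0.12; edgeR adjusted p = 0.538) with sh1 and −0.63 (SE 0.12; edgeR adjusted p = 0.00211) with sh2. For the mean of both hairpins FLNA fell by log2 −0.39 (SE 0.10; edgeR adjusted p = 0.0182), which did not pass without sh2 replicate 1 (0.0732) or shNC replicate 1 (0.0777; range 8.95e-09 to 0.0777). The level of FLNA was lower with sh2 than with sh1 (log2 −0.48, SE 0.12; edgeR adjusted p = 0.0363), the 1 transcript of 9 called in that comparison, where 1.92% of genes were (0.667% higher and 1.25% lower). That difference rests on single libraries. It was log2 −0.20 (edgeR adjusted p = 0.138) without sh1 replicate 1, and did not pass without sh2 replicate 1 (0.410) or sh2 replicate 2 (0.0880; range 3.42e-08 to 0.410). Without sh1 replicate 1, FLNA also fell with sh1 (log2 −0.43, edgeR adjusted p = 9.80e-05; range 9.80e-05 to 0.797), while without sh1 replicate 2 its change with sh1 was log2 0.08 (edgeR adjusted p = 0.601).

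NEIL1 stood at 28.8 and 26.7 CPM with sh1 and 23.9 and 26.6 CPM with sh2, against 31.7 and 31.7 CPM with shNC. All 4 libraries lay below both controls. NEIL1 fell with sh2 (log2 −0.43, SE 0.14; edgeR adjusted p = 0.0394), and its change with sh1 was −0.27 (SE 0.14; edgeR adjusted p = 0.287). MAN2C1, which overlaps it, had changes of log2 −0.27 with sh1 (edgeR adjusted p = 0.227) and −0.35 with sh2 (0.0639). CYFIP2 stood at 18.0 and 15.9 CPM with sh1 and 12.3 and 12.9 CPM with sh2, against 18.6 and 15.1 CPM with shNC. The sh1 libraries lay within the control range and the sh2 libraries below it. CYFIP2 fell with sh2 (log2 −0.52, SE 0.16; edgeR adjusted p = 0.0370), and its change with sh1 was −0.07 (SE 0.16; edgeR adjusted p = 0.866). For neither gene did sh2 differ from sh1 by the test of that difference (edgeR adjusted p = 0.595 for NEIL1 and 0.154 for CYFIP2). The sh2 calls of NEIL1 and CYFIP2 passed in none of the 4 fits that left out an sh2 or a shNC library.

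Without sh2 replicate 1, 0 of the 9 transcripts passed with sh2 in edgeR, FLNA coming closest (log2 −0.55, edgeR adjusted p = 0.0506; range 1.48e-10 to 0.0506). With sh1 the number of calls also changed when 1 library was left out, both among the 9 transcripts and over all genes tested. Each such fit leaves a group with 1 library, whose spread is then assumed to be that of the other groups.

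The other 5 transcripts gave no call with either hairpin in the fit of the 6 hairpin libraries. CDK13 stood at 40.3 and 43.8 CPM with sh1 and 36.2 and 36.6 CPM with sh2, against 31.8 and 25.7 CPM with shNC, so that all 4 libraries lay above both controls. With sh1 the change of CDK13 was log2 0.47 (SE 0.14; edgeR adjusted p = 0.0585), and it passed under 5 of the alternatives (range 0.00231 to 0.591). Its mean change was log2 0.35 (SE 0.12; edgeR adjusted p = 0.0596), and it passed under 4 of the alternatives (range 0.00297 to 0.622). COG3 stood at 35.2 and 35.5 CPM with sh1 and 32.3 and 33.1 CPM with sh2, against 26.0 and 29.6 CPM with shNC, again above both controls (mean change log2 0.20, 95% interval −0.05 to 0.44). COPA stood at 336 and 326 CPM with sh1 and 325 and 307 CPM with sh2, against 283 and 255 CPM with shNC, likewise above (log2 0.17, 95% interval −0.02 to 0.37). NUP43 stood at 41.3 and 44.4 CPM with sh1 and 54.6 and 52.9 CPM with sh2, against 43.9 and 38.9 CPM with shNC (log2 0.12, 95% interval −0.11 to 0.35). Its sh1 libraries overlapped the control range and its sh2 libraries lay above it. BLCAP stood at 48.3 and 39.3 CPM with sh1 and 52.0 and 51.8 CPM with sh2, against 48.6 and 46.5 CPM with shNC (log2 −0.09, 95% interval −0.33 to 0.15). The sh1 libraries of BLCAP spanned part of the control range and reached below it, and its sh2 libraries lay above both controls. Scaled by TMM over all 14 libraries, the sh2 libraries of COPA, COG3 and BLCAP overlapped the controls. COPA was then at 332 and 319 CPM with sh2, against 322 and 291 CPM with shNC. COG3 was at 33.0 and 34.4 against 29.6 and 33.8 CPM, and BLCAP at 53.3 and 53.9 against 55.2 and 53.2 CPM. With that scaling the sh1 libraries of COPA and COG3 stayed above both controls, and those of BLCAP lay below them.

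**Figure D3:**
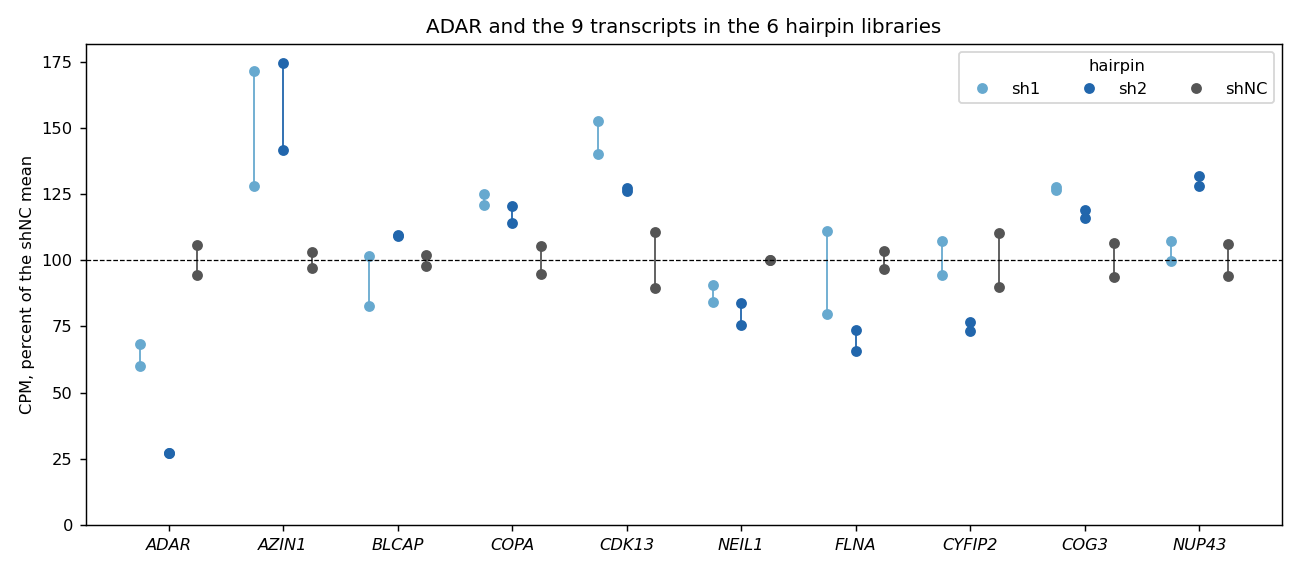
CPM of ADAR and the 9 transcripts in each hairpin library as a percentage of the shNC mean (vertical axis, linear from 0; points are libraries, lines join the 2 libraries of a hairpin). ADAR lies below the dashed line at 100 with both hairpins, AZIN1 lies above it in all 4 libraries with an ADAR hairpin, and NEIL1 lies below it in all 4.

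Since shNC is labelled as the OVCAR3-DDP background, it gives a second view of resistance in OVCAR3. Set against OVCAR3-WT, shNC did not show the pattern of the libraries labelled OVCAR3-DDP. CYFIP2 was 18.6 and 15.1 CPM in shNC, against 14.5 and 15.8 CPM in OVCAR3-WT, a difference of log2 0.34 (SE 0.14; edgeR adjusted p = 0.0489) at the threshold, where the libraries labelled OVCAR3-DDP gave 2.04. FLNA was higher in shNC than in OVCAR3-WT (log2 0.58, SE 0.14; edgeR adjusted p = 0.00153), where those libraries had been lower. NUP43 was lower (log2 −0.33, SE 0.13; edgeR adjusted p = 0.0364), where they had been higher. CDK13 was lower in shNC by log2 −0.96 (SE 0.12; edgeR adjusted p = 3.86e-07), at 31.8 and 25.7 CPM against 60.4 and 67.1 CPM in OVCAR3-WT. COG3 was higher by log2 1.10 (SE 0.14; edgeR adjusted p = 2.93e-07), close in size to its rise in the libraries labelled OVCAR3-DDP. NEIL1 differed by log2 0.06 (SE 0.12; edgeR adjusted p = 0.709) and BLCAP by −0.02 (SE 0.12; edgeR adjusted p = 0.928). The libraries labelled OVCAR3-DDP had given 0.83 for NEIL1 and −0.41 for BLCAP. In all, 5 of 9 were called, where 51.5% of the 24193 genes tested were (25.1% higher and 26.5% lower). Without the libraries labelled OVCAR3-DDP in the fit, 3 of 9 were called, as CYFIP2 (edgeR adjusted p = 0.0661, range over alternatives 0.0123 to 0.435) and NUP43 (0.0530, range 0.000943 to 0.682) no longer passed.

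Set directly against the libraries labelled OVCAR3-DDP, shNC had higher FLNA (log2 2.31, SE 0.15; edgeR adjusted p = 7.47e-13) and BLCAP (log2 0.31, SE 0.12; edgeR adjusted p = 0.0227). It had lower CYFIP2 (log2 −1.78, SE 0.14), NUP43 (−1.32), CDK13 (−1.08, SE 0.12) and NEIL1 (−0.85, SE 0.12). BLCAP did not pass without any 1 of the 4 libraries compared (edgeR adjusted p = 0.0738 to 0.11; range over alternatives 0.000160 to 0.11). These were 6 of 9, where 69.7% of all genes tested were called (32.9% higher and 36.8% lower). The hairpin libraries also differed in make-up from the others. Mitochondrial messenger RNA was 0.726% to 0.947% of their assigned counts, against 2.31% to 3.51% in the libraries without a hairpin, and reads with more than 1 alignment were 4.64% to 4.99% against 2.36% to 3.22%. Hairpin status, any difference in library preparation and the state of the cells cannot be told apart in these comparisons.

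Several of the 9 proteins work in complexes, so the genes for their partners were followed in the same fits. Their counts read against 68.5% of all genes called in OVCAR3 and 35.3% in A2780, and their medians against −0.03 and 0.00. In the libraries labelled OVCAR3-DDP, set against OVCAR3-WT, NUP43 moved against most of its complex. Of the 9 other Y complex genes, 2 rose and 6 fell, with a median of log2 −0.68. NUP160 (log2 −1.95), SEH1L (−1.69) and NUP98 (−1.09) fell most, where NUP43 rose by 0.92. In A2780, 4 of these 9 rose, among them SEC13 (log2 0.33), NUP37 (0.33) and NUP160 (0.30), and 0 fell (median 0.10), while NUP43 was at −0.34 without passing. In shNC against OVCAR3-WT, 2 of the 9 were higher and 7 lower (median −0.57), where 51.5% of all genes tested were called. NUP43 was lower there too, by log2 −0.33 (edgeR adjusted p = 0.0364). For COG3, which rose by 1.04 in OVCAR3, 3 of 7 other COG genes rose there (COG8 by log2 0.94, COG6 by 0.84 and COG4 by 0.38) and 0 fell (median 0.25), and in A2780 1 of 7 was called, COG6 (0.39; median 0.02). In shNC against OVCAR3-WT, where COG3 was higher by 1.10, 0 of the 7 were higher and 2 were lower, COG2 by log2 −2.29 and COG5 by −0.59 (median 0.10).

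For CYFIP2, 8 of 10 other WAVE complex genes were tested. In the libraries labelled OVCAR3-DDP 4 were higher and 2 lower than in OVCAR3-WT (median 0.32), with WASF3 (log2 2.06) and WASF1 (1.32), both activators of actin branching, higher and the scaffold NCKAP1 (−0.82) lower. CYFIP1, the close relative of CYFIP2, fell by log2 −0.47 (edgeR adjusted p = 0.000347). In A2780, WASF3 rose (0.52) and WASF1 (−0.39) and ABI1 (−0.36) fell (median −0.10), so none of the 8 came near the 1.94 of CYFIP2. CYFIP1 changed there by log2 0.20 (edgeR adjusted p = 0.102). Around COPA, 2 of 8 other coatomer genes rose and 3 fell in OVCAR3 (median −0.05), COPG2 by log2 1.37, COPB1 by −0.64 and COPZ2 by −4.32, the last at 0.637 and 0.348 CPM in the OVCAR3-DDP-labelled libraries and 9.01 and 8.53 CPM in OVCAR3-WT. In A2780, with a median of 0.14, 2 rose (COPZ1 by 0.60 and ARCN1 by 0.45) and 1 fell (COPZ2, at 0.290 and 0.0305 CPM in A2780-DDP and 0.833 and 0.489 CPM in A2780-WT).

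**Figure D4:**
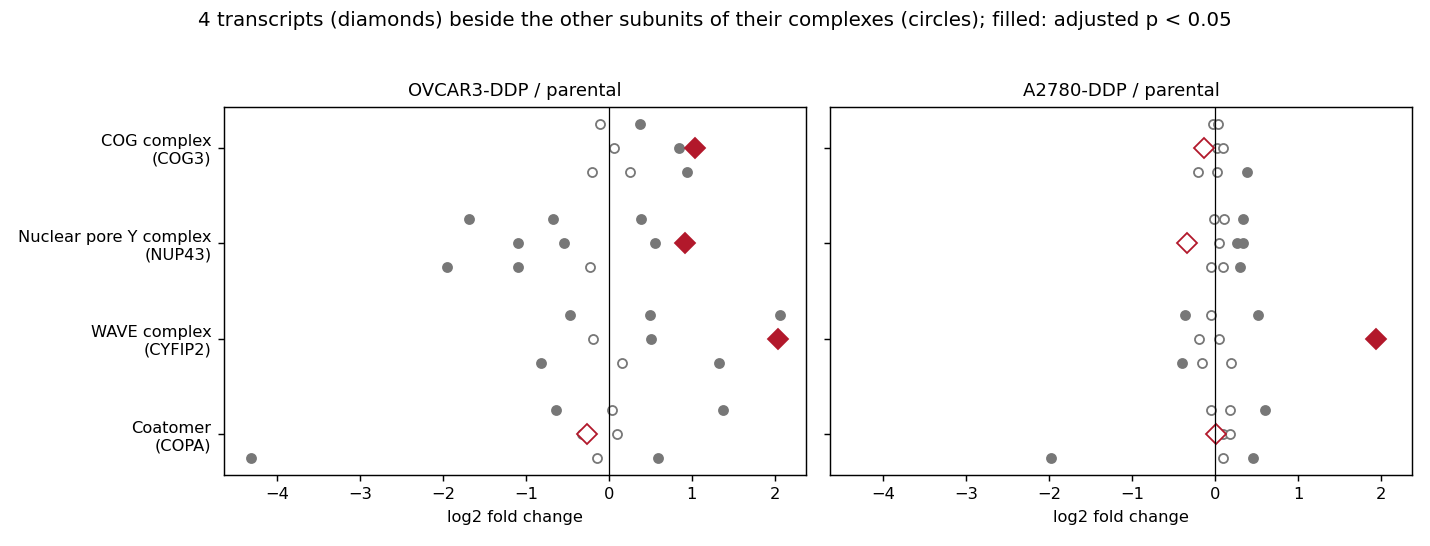
Log2 fold change (horizontal axis) of COG3, NUP43, CYFIP2 and COPA (red diamonds) beside the other tested genes of the COG, nuclear pore Y, WAVE and coatomer complexes (grey circles, spread vertically for legibility only) in OVCAR3-DDP and A2780-DDP over parental cells; filled symbols passed an adjusted p of 0.05. NUP43 at 0.92 lies to the right of all 9 other Y complex genes in OVCAR3, and CYFIP2 at 1.94 lies to the right of the other WAVE genes in A2780.

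FLNC, the muscle filamin and a relative of FLNA, was at 208 and 205 CPM in the OVCAR3-DDP-labelled libraries, 14255 counts in all, against 1 count in both OVCAR3-WT libraries together. The ratio was 17556, with a 95% counting interval of 3150 to 693478. In shNC, FLNC was at 1.65 and 1.57 CPM. In the 4 A2780 libraries FLNC was at most 0.335 CPM, and it was not called in A2780-DDP against A2780-WT.

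In the polyamine pathway around AZIN1, 4 of 11 genes rose and 4 fell in OVCAR3, with a median of log2 −0.18 (the same with PAOX at its bound), with SMOX (−2.70), which oxidises spermine, and SMS (−2.12), which makes it, falling most. PAOX, the oxidase that breaks polyamines down, was at 0.811 and 0.842 CPM in the OVCAR3-DDP-labelled libraries and at 0 counts in OVCAR3-WT. In A2780, 2 rose and 3 fell (median −0.01). AZIN2 (log2 −2.73), a sister of AZIN1, and the antizymes OAZ2 (−1.12) and OAZ1 (−0.83) fell there along with AZIN1. Under the hairpins, for the mean of both, ODC1, the ornithine decarboxylase that AZIN1 spares, rose by log2 0.42 (edgeR adjusted p = 0.0106, SE 0.10), and SMOX fell by −0.35 (SE 0.10; edgeR adjusted p = 0.0309). These were the 2 of 10 tested that passed, where 11.9% of all genes did (median −0.03, against 0.00 over all genes). With sh1 the same 2 passed, ODC1 at log2 0.53 and SMOX at −0.44. With sh2, under which ADAR was lower, 0 of 10 passed in edgeR, with ODC1 at log2 0.32 (edgeR adjusted p = 0.0639) and SMOX at −0.25 (0.159), and 4 of 10 were at an unadjusted p under 0.05.

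Among 11 other base excision repair genes beside NEIL1, all DNA glycosylases but the AP endonuclease APEX1, 3 rose and 7 fell in OVCAR3, with a median of log2 −0.48, MUTYH (−1.02) and MBD4 (−0.97) lower and MPG (0.66) higher. In A2780, 2 rose and 2 fell (median 0.02), UNG (log2 1.33) higher and NEIL3 (−1.02) and MBD4 (−0.60) lower. Under the hairpins TDG was the 1 of 11 that passed for the mean (log2 0.57, SE 0.16, edgeR adjusted p = 0.0288), where 11.9% of all genes did. Of the partners of CDK13, cyclin K (CCNK) rose in OVCAR3 (log2 0.63) and fell in A2780 (−0.40), and CDK12 was not called in either.

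For each transcript up to 2 protein-coding genes with the most similar profiles were named, by Pearson's r of log2(CPM + 0.5) over the 7 group means among 10250 genes with a mean of at least 10 CPM. These values describe 7 points that share libraries, and high values are common among so many genes. FLNA ran with BMP1 (r = 0.997) and AHNAK2 (0.995), NEIL1 with SLC25A42 (0.995) and CCDC85C (0.989), and CDK13 with INTS14 (0.993) and CC2D1A (0.992). NUP43 ran with MED23 (0.992) and SS18L2 (0.991), CYFIP2 with CERS4 (0.985) and ADGRL2 (0.984), and AZIN1 with VPS54 (0.982) and HSPA4L (0.980). COG3 ran with LARP6 (0.975) and GNAS (0.971). The 2 steadiest transcripts had the lowest values, BLCAP with KIF4A (0.964) and CCDC77 (0.953), and COPA with COPS8 (0.914). Between the 9 themselves, r ran from −0.93 for FLNA with NUP43 to 0.87 for CDK13 with NUP43.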

How the data were processed

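Total RNA (Trizol) of 14 libraries was sequenced. Per the submitters' processing notes, the authors used FastQC 0.11.9, STAR 2.7.8a, SAMtools and HTSeq 2.0.3 with GRCh38.p13, and they deposited raw counts per gene, 62757 genes and 5 summary lines per library. The strand setting of the counting is not given in the sources used here. Lines that name no gene were left out of library sizes and tests: reads in no feature were 48.7% to 50.0% and ambiguous reads 2.09% to 2.48%. Members and gene lists were chosen with earlier results of these data known.

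Genes were tested on the deposited counts with edgeR 4.0.16 (R 4.3.3, quasi-likelihood, TMM normalization, edgeR's low-count filter) in 3 fits: the 8 libraries without a hairpin (23031 genes), the 6 hairpin libraries (19044 genes), and all 14 for comparisons of shNC with cells without a hairpin (24193 genes). CPM was computed from assigned counts. Alternatives were DESeq2 1.42.0 size factors and its Wald test, upper-quartile scaling, no filter or a mean of at least 5 CPM, limma-voom (limma 3.58.1), a replicate block, other sets of libraries in the fit, and leaving out each library. Text names the 9 transcripts, the ADAR genes, up to 3 called genes with the largest change per list and comparison, and the 2 genes most like each transcript, except a gene that is not reported here. CYFIP1, CDK12, FLNC levels outside calls, and genes that overlap a transcript, were named after their values were seen. On simulated counts with 200 changed genes, 2-fold changes were recovered for 98% in the OVCAR3 comparison and 100% in A2780, and 1.5-fold changes for 57% and 61%. For the line difference these were 72% at 2-fold and 17% at 1.5-fold. With the hairpins, 2-fold changes were recovered for 100%, and 1.5-fold changes for 47% (sh1), 48% (sh2) and 65% (mean). The simulated counts had 1 spread for all genes and libraries and far fewer changed genes than were called in OVCAR3, so recovery in the real data may differ. No pair of replicates agreed within sampling noise. The mean chi-square per gene between a group's 2 libraries ran from 3.88 in OVCAR3-DDP to 31.5 in OVCAR3-WT. It was 18.0 in A2780-DDP and 21.1 in sh1, so replicate spread was not alike over groups that share 1 fitted spread.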

Additional observations from a re-analysis of the deposited data

Results flagged for a closer look

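For 5 transcripts the change from parental to DDP libraries without a hairpin differed between the lines by the interaction test in edgeR. Values are OVCAR3 change minus A2780 change (log2), with Benjamini-Hochberg adjustment over 23031 genes. The difference was 1.35 for NEIL1, 1.26 for NUP43, 1.17 for COG3, −1.27 for FLNA and 0.30 for AZIN1, the last with an adjusted p of 0.0499 that missed the threshold in 9 of its alternatives (0.00756 to 0.169). Each difference uses the libraries labelled OVCAR3-DDP, so resistance and the marker difference of those libraries cannot be told apart in it. By the same test, 53.8% of all genes tested differed.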

How the results depend on the processing

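Of 1161 values of the 9 transcripts under alternatives, 1000 kept direction and call, 66 lost the call, 33 gained one and 62 turned sign, all of them without a call in the fits reported; the cause was not tested. With DESeq2 size factors, upper-quartile scaling, no filter, at least 5 CPM, the DESeq2 Wald test and all 14 libraries, COPA in OVCAR3-WT against A2780-WT became 0.037, 0.032, 0.033, 0.063, 0.037 and 0.022 (log2), and the line difference of BLCAP 0.021, 0.11, 0.035, 0.090, 0.021 and 0.049. AZIN1 in OVCAR3-DDP against OVCAR3-WT became 0.023 with upper-quartile scaling and 0.0058 at 5 CPM, and BLCAP with sh2 −0.0039 with upper-quartile scaling. In shNC against OVCAR3-WT, AZIN1, BLCAP and COPA became 0.050, 0.051 and 0.047 with size factors and likewise with Wald, 0.067, 0.067 and 0.064 with upper-quartile scaling, 0.065, 0.065 and 0.061 at 5 CPM, and 0.0075, 0.0079 and 0.0037 with the compared groups alone. COG3 in shNC against the libraries labelled OVCAR3-DDP became 0.035 (size factors, Wald), 0.021 (upper quartile), 0.052 (no filter) and 0.026 (alone). A minimum of 5 CPM left fewer genes, with 10267, 9989 and 10343 called in OVCAR3, between parental lines and in shNC against OVCAR3-DDP; sh2 against sh1 gave 690 without a filter and 646 with Wald, against 365. With sh1, transcripts called were 0 with size factors, upper quartile and voom and 2 at 5 CPM, with Wald and with 14 libraries; for the mean of hairpins 4 at 5 CPM and with Wald; for sh2 against sh1 0 with 14 libraries; for shNC against OVCAR3-WT 3 with voom, alone, or without the libraries labelled OVCAR3-DDP (chosen after seeing the data). On TMM-scaled CPM, 3 transcripts kept their extreme groups. Leaving out 1 library, the values that turned ranged for AZIN1 from −0.13 to 0.27 (sh2 against sh1), −0.027 to 0.036 (shNC against OVCAR3-DDP) and −0.057 to 0.0050 (shNC against OVCAR3-WT); BLCAP −0.021 to 0.061 (parental lines) and −0.039 to 0.090 (line difference); CDK13 −0.069 to 0.099 (A2780) and −0.024 to 0.11 (OVCAR3); COG3 −0.16 to 0.11 (shNC against OVCAR3-DDP); COPA −0.082 to 0.18 (A2780), −0.15 to 0.14 (parental lines) and −0.15 to 0.11 (shNC against OVCAR3-WT); CYFIP2 −0.20 to 0.073, FLNA −0.43 to 0.081 and NUP43 −0.10 to 0.043 (sh1); and NEIL1 −0.037 to 0.16 (shNC against OVCAR3-WT). Over all genes, calls ranged from 327 to 6318 (mean of hairpins), 89 to 4512 (sh1), 58 to 4286 (sh2 against sh1) and 303 to 1386 (sh2), and transcripts called from 1 to 5 (A2780), 0 to 5 (mean of hairpins), 0 to 5 (sh1), 0 to 3 (sh2 against sh1), 0 to 2 (sh2) and 3 to 4 (shNC against OVCAR3-WT). Replicate numbers showed no pairing common to all groups. Over 21 pairs of groups, r of same-numbered deviations ran from −0.281 to 0.488, with 3 over 0.1. The value of 0.488 was for OVCAR3-WT with A2780-DDP, over 13044 genes, and its source was not tested. With a replicate block the transcripts called were 7 in OVCAR3, 6 in A2780, 4 for the line difference, 1 with sh1, 3 with sh2, 2 for the mean of hairpins, 1 for sh2 against sh1, 4 for shNC against OVCAR3-WT, 6 for shNC against OVCAR3-DDP and 4 between parental lines. Each transcript had 252 or more counts in every library, and no alternative varied depth.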

Other observations

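Of 16 other messages with known recoding sites, 3 rose and 2 fell in A2780-DDP against A2780-WT, where 18.0% of all genes rose and 17.3% fell (median log2 0.15, also with GABRA3 at its bound, against 0.00). GRIK2, a glutamate receptor subunit, had 158 counts in A2780-DDP and 1 in A2780-WT, a ratio of 150.0 with a 95% counting interval of 26.5 to 5962. The splicing factor NOVA1 rose by log2 3.32, with 148 counts in A2780-DDP and 14 in A2780-WT. The GABA receptor subunit GABRA3 had 0 counts in A2780-DDP and 21 in A2780-WT, at least 7.42-fold lower in A2780-DDP with the floor at 3 counts over both libraries. In the libraries labelled OVCAR3-DDP NOVA1 stood at 10.8 ± 0.716 CPM (SD, n = 2; 742 counts), against 0 counts in OVCAR3-WT, at least 305-fold higher when the floor for both OVCAR3-WT libraries together is set to 3 counts. GRIK2 fell there by log2 −3.68.

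Of 12 regulators of editing, 3 rose and 7 fell in OVCAR3 (median log2 −0.55, against −0.03 over all genes), where 33.4% of all genes rose and 35.2% fell. The RNA helicase DHX9 fell by log2 −1.30. In A2780, where 35.3% of all genes were called, 0 rose and 3 fell, AIMP2 by −0.99. Among 9 transcripts edited in Alu or untranslated sequence, METTL7A stood at 0.0580 and 0.0610 CPM in A2780-DDP, against 8.14 and 7.89 CPM in A2780-WT (edgeR adjusted p = 2.76e-09). For the mean of both hairpins 3 of these 9 rose and 1 fell, where 11.9% of all genes were called (median log2 0.29, against 0.00), with the dioxin receptor AHR at 0.73, the interferon-induced kinase EIF2AK2 at 0.41 and MAVS at −0.50. With sh2, 4 rose and 1 fell, where 14.3% of all genes were called. With sh1, 0 of the 9 passed in edgeR, where 3.81% did, and 4 were at an unadjusted p under 0.05. The lists were chosen with results of these data known.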
